A study of Mus musculus with 10 samples.

Results

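Expression of 10 genes of the Nrf2 antioxidant and glutathione system was examined in macrophages sorted from drug-resistant melanomas of control and Ccr2 knockout mice. The genes were taken by symbol from a list (Nfe2l2, Keap1, Nqo1, Gclc, Gclm, Srxn1, Txnrd1, Slc7a11, Gsr and Prdx1). All 10 were found among 55359 gene identifiers, and all 10 passed the filter on low counts that left 14374 genes for testing. This list and the others below were chosen with earlier results of these data known. Their shares beside those of all genes are therefore descriptive. The macrophages carried the surface marker F4/80 and were sorted by flow cytometry from tumours of male mice that grew back while both groups received Braf and Mek inhibitors every day. Control libraries (5) came from mice with 1 RFP allele of Ccr2 and 1 working allele, labelled Ccr2RFP/+, so that the controls are heterozygous although their titles read WT. Knockout libraries (5) came from mice with the RFP allele on both chromosomes, labelled Ccr2RFP/RFP. Ccr2 is missing in every cell of these knockout mice, not in macrophages alone. No source used here gives the age of the mice or the tumour line, and none says that each library came from a separate animal. The p-values therefore measure the spread between these libraries, which may in part be technical.

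Nrf2, encoded by Nfe2l2, is a transcription factor that activates genes against oxidants and electrophiles. At rest Keap1 holds it for ubiquitination by a Cul3 ligase and its degradation, and modification of cysteines in Keap1 by electrophiles lets newly made Nrf2 reach the nucleus. There it pairs with small Maf proteins at antioxidant response elements and drives glutathione synthesis, thioredoxin and peroxiredoxin recycling and quinone reduction. In macrophages it is known to restrain inflammatory cytokine genes. Since Nrf2 is controlled mainly through the stability of its protein, its mRNA does not report its activity.

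The libraries held between 34639808 and 43360206 counts in genes. Ccr2 counts ran from 147 to 7270, with 119 ± 45.9 CPM in the controls and 4.72 ± 1.41 CPM in knockout libraries (SD, n = 5 each), and each library matched its genotype label. The macrophage genes Adgre1, which encodes F4/80, and Csf1r stood between 1562 and 2020 CPM and between 2548 and 4122 CPM. The melanocyte genes Tyr and Mlana were at 0 in 9 of the 10 libraries. Dct was above 0 in control library 1 and knockout library 1 (0.743 and 0.0659 CPM). Tyrp1 was above 0 in control library 1 and knockout libraries 1 and 5 (0.398, 0.0879 and 0.104 CPM). All 8 listed melanoma markers summed to between 31.2 and 59.95 CPM. Nearly all of this sum came from the other listed markers, whose cell of origin was not tested. Control libraries 1 and 2, and control libraries 3 and 4, lay closer to each other (median chi-square per gene 2.77 and 2.67) than any other pair (5.17 or more, sampling noise 0.455). Knockout library 2 lay closer to control library 3 (5.17) than to any knockout library (6.50 or more). For several genes below the adjusted p with each close control pair counted as 1 library is given as well.

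None of the 10 genes differed between the genotypes past an adjusted p of 0.05 (edgeR quasi-likelihood test, Benjamini-Hochberg adjustment over all genes tested), where 1.41% of all genes tested did. DESeq2 called 1 of the 10, Srxn1, against 4.55% of the genes it tested. At an unadjusted p under 0.05 there were 5, namely Gclc, Gclm, Srxn1 and Prdx1 with higher and Gsr with lower values in knockout libraries, against 15.3% of all genes tested. In 2 of the 10, Gclm and Prdx1, the CPM of the knockout libraries lay wholly above those of the controls, which was so of 2.69% of all genes tested, while 4.70% did not overlap in either direction. Of the 10 log2 fold changes 7 were positive and 3 negative, with a median of 0.24 against -0.0034 over all genes tested. Some markers of other macrophage states differed between the genotypes. Of 12 classical monocyte markers 7 fell, Ccr2 itself, fixed by the genotype, among them. Their summed level was 3124 to 8215 CPM in the controls and 1866 to 4139 CPM in knockout libraries, and it did not separate the groups. Knockout libraries 2 and 4 (3633 and 4139 CPM) lay above control libraries 1 to 4 (3124 to 3290 CPM), and only control library 5, at 8215 CPM, was higher. Of 10 resident-like macrophage markers 5 rose (2090 to 3512 and 3338 to 5821 CPM), while 1 of 10 core macrophage markers rose. Of 8 dendritic cell markers 1 fell (11.7 to 29.6 and 5.03 to 11.1 CPM), and of 9 tested T and NK cell markers 0 passed (28.7 to 120.5 and 2.45 to 89.3 CPM). Of the 4 melanoma markers that could be tested 1 rose (33.0 to 57.3 and 31.2 to 59.95 CPM for all 8). Tyr, Mlana, Dct and Tyrp1 were too low to be among those tested. With each close control pair counted as 1 library 5 classical monocyte markers passed and 0 of the resident-like, core, dendritic and melanoma markers did. Without control library 1, 2, 3 or 4 the resident-like count was 2 and the core, dendritic and melanoma counts were 0. The resident-like count was also 2 without knockout library 4, where the dendritic and melanoma counts were 0, and 3 without knockout library 1 or 5, the dendritic count being 0 without library 5. Without both knockout libraries 4 and 5 the counts were 6 classical monocyte, 1 resident-like and 0 of the other markers named here. No listed marker was at 0 in every library, and the part of these shifts in the values below was not tested. In bulk RNA a gene carried by fewer cells and one with less RNA per cell cannot be told apart.

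**Figure D1:**
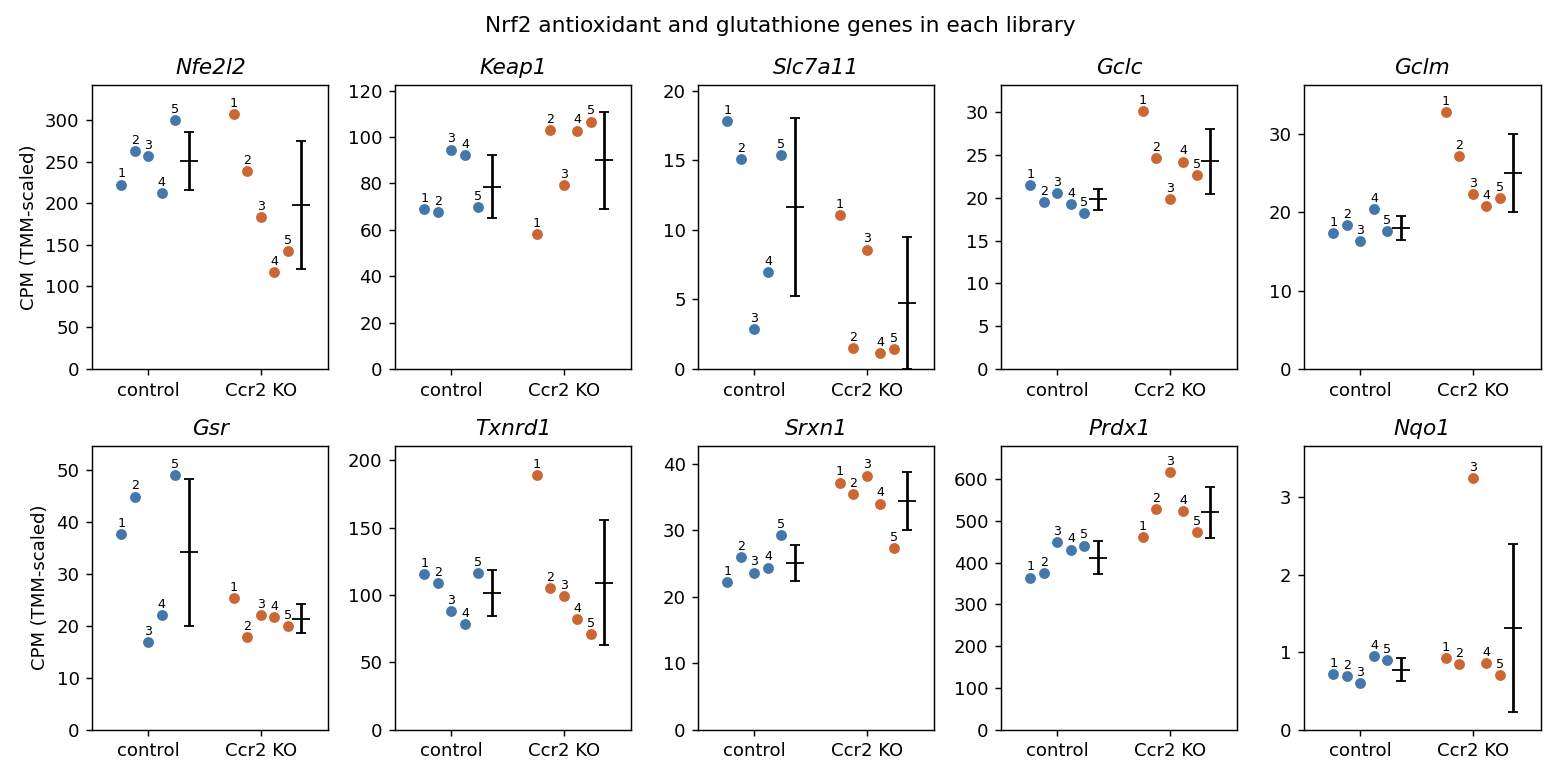
CPM (TMM-scaled library sizes, linear axis from 0) of each gene in each library, with the replicate number above each point; blue, control, orange, Ccr2 knockout, and the black mark is the mean ± SD of 5 libraries. Gclm and Prdx1 show no overlap between the groups, while Slc7a11 and Gsr vary most within the control group and Nqo1 is high in knockout library 3 alone.

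**Figure D2:**
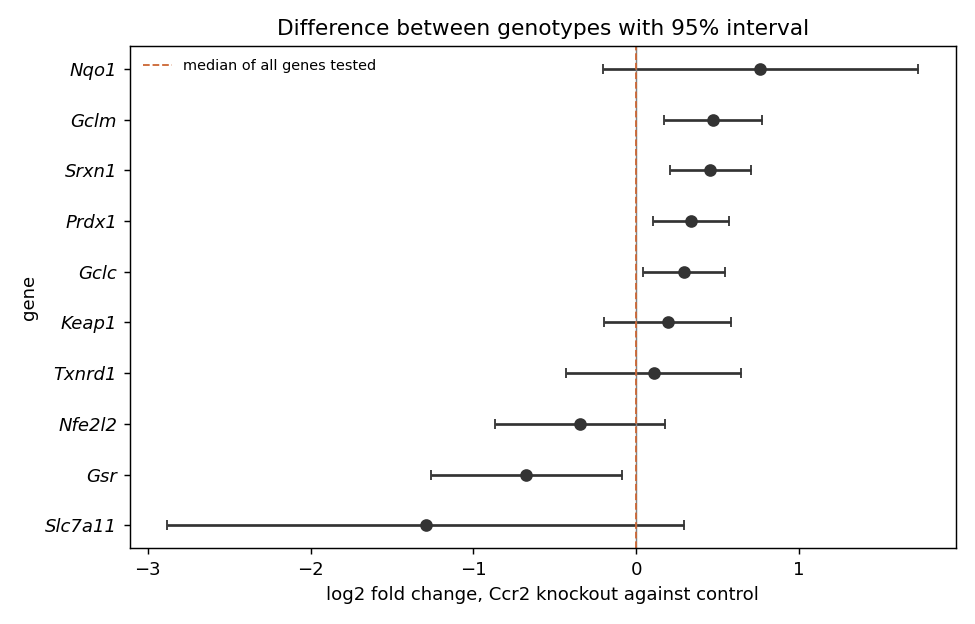
Log2 fold change of each gene, Ccr2 knockout against control, with its 95% interval from the edgeR fit (5 libraries per group); the dashed line is the median of all genes tested. The intervals of Gclm, Srxn1, Prdx1 and Gclc lie above 0 and that of Gsr below 0 before adjustment, and the widest is that of Slc7a11, from -2.88 to 0.29.

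Nfe2l2 (ENSMUSG00000015839), the gene of Nrf2 itself, stood at 222, 263, 256, 212 and 300.0 CPM in control libraries 1 to 5. In knockout libraries 1 to 5 it stood at 307, 238, 183, 117 and 142 CPM. The groups overlapped, with knockout library 1 the highest of all and knockout libraries 4 and 5 the lowest. Its log2 fold change was -0.34 (SE 0.24, 95% interval -0.87 to 0.18, edgeR adjusted p = 0.508). It was -0.03 without knockout libraries 4 and 5, -0.56 without knockout library 1 (adjusted p = 0.187) and -0.52 with limma-voom and library quality weights. Keap1 (ENSMUSG00000003308), the inhibitor that targets Nrf2 for degradation, stood at 68.8, 67.7, 94.6, 92.3 and 69.7 CPM in the controls and 58.0, 103, 79.2, 103 and 107 CPM in knockout libraries. Knockout library 1, highest for Nfe2l2, was the lowest for Keap1, and knockout libraries 2, 4 and 5 lay above every control. The log2 fold change of Keap1 was 0.19 (SE 0.18, 95% interval -0.20 to 0.58, edgeR adjusted p = 0.629), and it was 0.03 without knockout libraries 4 and 5 and 0.32 without knockout library 1.

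The ratio of Nfe2l2 to Keap1 counts within a library does not depend on how libraries are scaled. On the log2 scale it was 1.69, 1.96, 1.44, 1.20 and 2.11 in control and 2.41, 1.21, 1.21, 0.19 and 0.41 in knockout libraries. The means were 1.68 ± 0.37 and 1.09 ± 0.87 (SD, n = 5 each), and the difference of -0.59 did not pass (exact two-sided permutation p = 0.206, adjusted p = 0.206 over 3 ratios, smallest possible p 0.00794). The knockout libraries ran from the highest ratio of all 10 libraries to the lowest, so the spread within this group was wider than the difference between the groups.

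Of 15 regulators and partners of Nrf2, 14 could be tested and 0 passed the threshold. There were 2 at an unadjusted p under 0.05, and the median log2 fold change was -0.07. DESeq2 called 1, Nfe2, which encodes a related factor of blood cells. For this list and those below, 1.41% of all genes tested passed the threshold and 15.3% had an unadjusted p under 0.05. DESeq2 called 4.55% of the genes it tested, and in 4.70% of all genes tested by edgeR the groups did not overlap. In the controls Nfe2 stood at 2.57 ± 1.17 CPM and in knockout libraries at 0.884 ± 0.465 CPM, with no overlap between the groups (log2 fold change -1.54, SE 0.44, edgeR adjusted p = 0.121, or 0.318 with close control pairs counted as 1). Nfe2l1, which encodes the related factor Nrf1, stood at 152 ± 15.3 and 177 ± 18.3 CPM (log2 fold change 0.22, edgeR adjusted p = 0.325). Among the small Maf partners Mafg had a log2 fold change of 0.25 and Maff of -0.86 (edgeR adjusted p = 0.516 and 0.369). Maff stood at 9.54 and 9.24 CPM in knockout libraries 4 and 5, the same libraries that were lowest for Nfe2l2, and between 30.4 and 72.2 CPM in the other 8. Without knockout libraries 4 and 5 the log2 fold change of Maff was -0.34, and that of Mafg was 0.11 without knockout library 1. Bach2, a repressor that competes for the same elements, had a log2 fold change of -0.41, and Pgam5, a mitochondrial phosphatase bound by Keap1, of 0.10 (edgeR adjusted p = 0.377 and 0.567).

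Glutathione synthesis begins with glutamate-cysteine ligase, whose catalytic subunit is encoded by Gclc and whose modifier subunit is encoded by Gclm. Gclm (ENSMUSG00000028124) stood at 17.3, 18.4, 16.3, 20.4 and 17.6 CPM in the controls and 32.7, 27.2, 22.3, 20.7 and 21.8 CPM in knockout libraries. All 5 knockout libraries lay above the highest control, though knockout library 4 exceeded control library 4 only narrowly. The means were 18.0 ± 1.52 and 24.95 ± 4.995 CPM (log2 fold change 0.47, SE 0.14, 95% interval 0.17 to 0.77, unadjusted p = 0.00517, edgeR adjusted p = 0.125). Gclc (ENSMUSG00000032350) stood at 21.5, 19.5, 20.5, 19.3 and 18.2 CPM in the controls and 30.2, 24.6, 19.8, 24.2 and 22.6 CPM in knockout libraries. Of the knockout libraries 4 lay above every control, and knockout library 3 lay within the control range. Its log2 fold change was 0.29 (SE 0.11, 95% interval 0.04 to 0.55, unadjusted p = 0.0267, edgeR adjusted p = 0.255). With each close control pair counted as 1 library the adjusted p of Gclm was 0.430 and that of Gclc 0.564. Knockout library 1 was the highest for both subunits.

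The log2 ratio of Gclc to Gclm counts was 0.14 ± 0.18 in control and -0.03 ± 0.17 in knockout libraries (SD, n = 5 each), a difference of -0.17 (exact two-sided permutation p = 0.159, adjusted p = 0.206 over 3 ratios). The ratio ran from -0.08 to 0.33 in the controls and from -0.17 to 0.22 in knockout libraries, and these ranges overlapped. Gss, which encodes the enzyme of the second step of glutathione synthesis, stood at 18.6 ± 1.43 and 22.3 ± 2.78 CPM (log2 fold change 0.27, SE 0.11, edgeR adjusted p = 0.272).

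Promoter windows of 300 bases, 250 before and 50 from the RefSeq transcription start on GRCm38.p6, were found for 8 of the 10 genes and numbered 10 in all because Txnrd1 has several starts. They were searched on both strands for the core of the antioxidant response element in the forms TGACNNNGC and TGAGNNNGC. Either form was present in 6 of the 10 windows of these genes and in 27.8% of all windows of this length, with 12.4% holding the first and 17.7% the second. The windows of Nqo1 and Keap1 and some of those of Txnrd1 held neither form, and Gclc and Gsr had no window. The Gclm window is shown because its groups did not overlap, with the match to the first form in capitals, 134 bases before the start on the opposite strand.
Gclm, chr3:122245307-122245606, plus strand: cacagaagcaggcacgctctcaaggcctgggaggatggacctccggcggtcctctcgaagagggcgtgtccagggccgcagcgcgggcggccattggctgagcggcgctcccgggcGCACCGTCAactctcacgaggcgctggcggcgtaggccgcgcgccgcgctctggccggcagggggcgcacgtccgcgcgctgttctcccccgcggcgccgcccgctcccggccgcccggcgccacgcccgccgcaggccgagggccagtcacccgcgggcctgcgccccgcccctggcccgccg

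Slc7a11 (ENSMUSG00000027737) encodes the light chain of the exchanger that brings cystine, the source of cysteine for glutathione, into the cell. It stood at 17.8, 15.1, 2.86, 6.98 and 15.4 CPM in the controls and 11.1, 1.49, 8.59, 1.15 and 1.41 CPM in knockout libraries. It was the most variable of the 10 genes, with 15.5-fold between its highest and lowest library, from 47 to 672 counts. Control libraries 3 and 4 stood low and knockout libraries 1 and 3 stood high within their groups, and the groups overlapped. The means were 11.6 ± 6.39 and 4.74 ± 4.73 CPM (log2 fold change -1.29, SE 0.72, 95% interval -2.88 to 0.29, edgeR adjusted p = 0.415). Without knockout libraries 4 and 5 the log2 fold change was -0.70, and with limma-voom and library quality weights it was -2.01. With each close control pair counted as 1 library it was -1.36 (adjusted p = 0.665).

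Slc3a2, which encodes the heavy chain that Slc7a11 shares with other transporters, stood at 416 ± 69.4 CPM in the controls and 399 ± 50.97 CPM in knockout libraries (edgeR adjusted p = 0.852). The log2 ratio of Slc7a11 to Slc3a2 counts was -4.30, -4.66, -7.18, -5.84 and -5.11 in control and -5.00, -8.27, -5.65, -8.47 and -7.92 in knockout libraries. The difference of -1.64 did not pass (exact two-sided permutation p = 0.0952, adjusted p = 0.206 over 3 ratios), and the order of the libraries was nearly that of Slc7a11 alone.

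Slc7a11 is also known as a target of Atf4, the factor of the amino acid stress response, whose element has the core TGATGCAA. In the Slc7a11 window this core occurred in both orientations, at 66 and 47 bases before the start, and it occurred in 0.896% of all windows, in no other window of the 10. The window also held TGAGNNNGC on the opposite strand, 97 bases before the start, and is shown with all 3 matches in capitals because this gene differed most between libraries.
Slc7a11, chr3:50443564-50443863, minus strand: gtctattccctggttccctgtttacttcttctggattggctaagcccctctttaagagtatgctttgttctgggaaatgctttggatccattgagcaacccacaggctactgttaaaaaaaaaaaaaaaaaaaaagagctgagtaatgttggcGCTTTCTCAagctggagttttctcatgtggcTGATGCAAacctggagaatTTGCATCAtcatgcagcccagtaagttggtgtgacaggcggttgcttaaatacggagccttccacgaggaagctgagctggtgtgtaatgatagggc

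Of 17 genes of the Atf4 amino acid stress response, 14 could be tested and 0 passed the threshold, 0 by DESeq2 also. An unadjusted p under 0.05 was found for 2, against 15.3% of all genes tested. The median log2 fold change of the 14 was -0.33, and 11 of them were negative, against 50.49% of all genes tested. Without knockout libraries 4 and 5 the median was -0.17, with 10 of 15 tested genes negative. Nupr1, a stress-induced chromatin protein gene, stood at 47.3 ± 10.06 and 33.6 ± 6.46 CPM (log2 fold change -0.49, edgeR adjusted p = 0.198). Psat1, an enzyme of serine synthesis, went the other way at 40.95 ± 6.06 and 53.3 ± 4.11 CPM, with no overlap between the groups (log2 fold change 0.38, edgeR adjusted p = 0.140). Atf3, also an early-response gene, stood at 602 ± 107 and 353 ± 194 CPM, and Ddit3, the gene of the stress factor Chop, at 23.1 ± 4.23 and 17.97 ± 4.38 CPM (edgeR adjusted p = 0.339 and 0.382). Atf3 was lowest in knockout libraries 4 and 5 (136 and 171 CPM), and its log2 fold change of -0.77 was -0.30 without them. Trib3 and Shmt2 had log2 fold changes of 0.50 and 0.17 (edgeR adjusted p = 0.418 and 0.394).

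Gsr (ENSMUSG00000031584) encodes glutathione reductase, which returns oxidized glutathione to its reduced form with NADPH. It stood at 37.7, 44.8, 16.9, 22.1 and 48.97 CPM in the controls and 25.4, 17.9, 22.1, 21.6 and 19.9 CPM in knockout libraries. Control libraries 1, 2 and 5 stood above all other libraries, while control libraries 3 and 4 lay at the level of the knockout group. The means were 34.1 ± 14.1 and 21.4 ± 2.79 CPM (log2 fold change -0.67, SE 0.27, 95% interval -1.26 to -0.08, unadjusted p = 0.0287, edgeR adjusted p = 0.263). With each close control pair counted as 1 library it was -0.77 (adjusted p = 0.388).

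Some neutrophil markers were high in the same libraries as Gsr and Slc7a11, and their part in these values was not tested. S100a9, an abundant neutrophil gene chosen after its values were seen, stood at 111, 66.0, 1.6, 13.3 and 135 CPM in the controls and 58.97, 1.16, 31.3, 0 and 0.131 CPM in knockout libraries. Control libraries 1, 2 and 5, highest for Gsr and Slc7a11, were also the 3 highest for S100a9, and knockout libraries 1 and 3 came next for both S100a9 and Slc7a11. The summed level of the 10 neutrophil markers was 405, 318, 164, 262 and 648 CPM in the controls and 223, 116, 156, 150 and 175 CPM in knockout libraries. The sum followed Slc7a11 less closely, since knockout library 3 lay below knockout library 5 and control library 3. Csf3r, a neutrophil receptor gene, was lowest in knockout library 3 at 75.6 CPM. It made up most of the sum in knockout libraries 4 and 5 (129 and 130 CPM), where S100a9 was near 0. S100a8 and Cxcr2 were highest in control libraries 1, 2 and 5 and knockout libraries 1 and 3, as Slc7a11 was. In knockout library 3 they stood at 17.6 and 1.42 CPM, and in control library 4 at 16.1 and 0.301 CPM. For Ngp, Camp and Ltf control library 4 lay above knockout libraries 1 and 3. Between the genotypes 0 of the 9 neutrophil markers that could be tested passed the threshold by edgeR. All 9 had negative log2 fold changes (median -2.09), with 5 at an unadjusted p under 0.05 and 4 called by DESeq2. The granule gene Ngp was at 0 in control library 3 and in knockout libraries 2, 4 and 5. Fibroblast markers ran partly in the same order. Among the controls their sum was also highest in libraries 1, 2 and 5 (1814, 1003 and 2147 CPM). Among knockout libraries it was highest in library 3 (3396 CPM), while library 1 (555 CPM) lay below library 4 (605 CPM). Their part in the values of Gsr and Slc7a11 was not tested either.

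**Figure D3:**
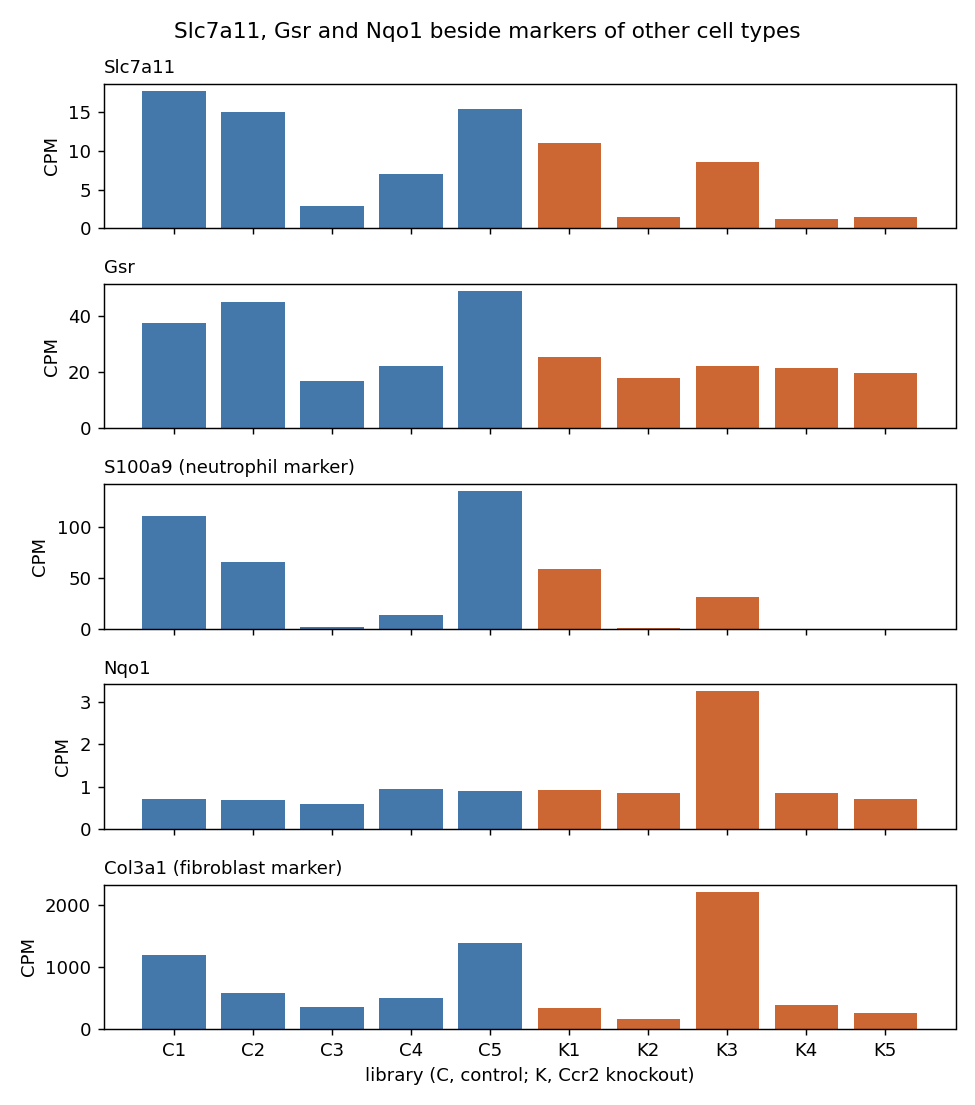
CPM (linear axes from 0) of Slc7a11, Gsr and Nqo1 in each library, beside S100a9, a neutrophil marker, and Col3a1, a fibroblast marker; C1 to C5 are control and K1 to K5 Ccr2 knockout libraries. Slc7a11 is high in C1, C2, C5, K1 and K3, the libraries with most S100a9, and Nqo1 is highest in K3, the library with most Col3a1 at 2219 CPM. Among the controls Col3a1 is also highest in C1, C2 and C5 (1198, 592 and 1387 CPM), while K1 is at 340 CPM.

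Other genes of glutathione use and recycling showed no call, with 0 of 24 past the threshold by edgeR and 0 by DESeq2. An unadjusted p under 0.05 was found for 3, against 15.3% of all genes tested, and the median log2 fold change was 0.02. Gpx3, a secreted glutathione peroxidase, stood at 47.3 ± 12.6 and 64.99 ± 11.4 CPM (log2 fold change 0.46, edgeR adjusted p = 0.252). Gpx1, the abundant cytosolic peroxidase, stood at 815 ± 118 and 711 ± 109.5 CPM (log2 fold change -0.20, edgeR adjusted p = 0.506). Gpx8, a peroxidase of the endoplasmic reticulum, had a log2 fold change of -1.04 (edgeR adjusted p = 0.280) that was -1.66 without knockout library 3, where it then passed (edgeR adjusted p = 0.0142). The summed level of 8 fibroblast markers was 3396 CPM in knockout library 3 and from 257 to 605 CPM in the other knockout libraries, and its part in the value of Gpx8 was not tested. The microsomal glutathione transferase genes Mgst3 and Mgst2 had log2 fold changes of 0.50 and -0.81 (edgeR adjusted p = 0.341 and 0.507), which were 0.28 and -1.58 without knockout library 3 (adjusted p = 0.487 and 0.092).

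The thioredoxin branch was represented by Srxn1, Prdx1 and Txnrd1. Srxn1 (ENSMUSG00000032802) encodes sulfiredoxin, which repairs overoxidized peroxiredoxins. It stood at 22.2, 25.9, 23.6, 24.4 and 29.3 CPM in the controls and 37.2, 35.4, 38.2, 33.98 and 27.2 CPM in knockout libraries. Knockout libraries 1 to 4 lay above every control, and knockout library 5 lay below control library 5. The means were 25.1 ± 2.71 and 34.4 ± 4.31 CPM (log2 fold change 0.46, SE 0.11, 95% interval 0.21 to 0.71, unadjusted p = 0.00203, edgeR adjusted p = 0.0852), the smallest p of the 10 genes. DESeq2 gave an adjusted p of 0.0226, and with each close control pair counted as 1 library edgeR gave 0.394.

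Prdx1 (ENSMUSG00000028691) encodes a peroxiredoxin of the cytosol, a substrate of sulfiredoxin that removes hydrogen peroxide. It stood at 364.5, 375, 450, 431 and 441 CPM in the controls and 461, 528.5, 618, 524 and 474 CPM in knockout libraries. All knockout libraries lay above the highest control, with knockout library 1 the nearest to it. The means were 413 ± 39.9 and 521 ± 61.7 CPM (log2 fold change 0.34, SE 0.11, 95% interval 0.10 to 0.57, unadjusted p = 0.00853, edgeR adjusted p = 0.155). With each close control pair counted as 1 library the adjusted p was 0.474.

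The windows of Srxn1 and Prdx1 are shown because these genes, with Gclm, had the 3 smallest p-values of the 10. Matches to both forms of the antioxidant response element core are in capitals. In Srxn1 they lie 158 and 45 bases before and 28 bases past the start, and in Prdx1 133 bases before and 15 bases past it. The match at 45 bases in Srxn1 and the match at 133 bases in Prdx1 each contain TGAGTCA, the letters bound by AP-1 factors.
Srxn1, chr2:152105274-152105573, plus strand: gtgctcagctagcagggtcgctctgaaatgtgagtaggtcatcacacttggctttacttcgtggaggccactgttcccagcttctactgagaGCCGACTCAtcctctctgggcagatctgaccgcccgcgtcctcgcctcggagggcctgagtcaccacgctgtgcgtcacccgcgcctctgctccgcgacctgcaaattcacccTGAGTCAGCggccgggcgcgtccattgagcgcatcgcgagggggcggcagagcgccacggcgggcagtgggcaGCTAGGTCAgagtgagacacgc
Prdx1, chr4:116685349-116685648, plus strand: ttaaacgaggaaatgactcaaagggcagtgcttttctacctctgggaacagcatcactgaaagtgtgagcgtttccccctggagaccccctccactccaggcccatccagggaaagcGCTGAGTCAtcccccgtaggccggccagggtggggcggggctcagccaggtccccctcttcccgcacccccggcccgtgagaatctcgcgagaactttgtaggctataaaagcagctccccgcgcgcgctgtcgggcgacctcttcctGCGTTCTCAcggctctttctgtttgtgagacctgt

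Txnrd1 (ENSMUSG00000020250) encodes cytosolic thioredoxin reductase, the selenoprotein that reduces thioredoxin with NADPH. It stood at 116, 109, 88.2, 78.7 and 117 CPM in the controls and 189, 105, 99.5, 81.9 and 70.99 CPM in knockout libraries. Knockout library 1 stood far above all others, and knockout library 5 was the lowest. The log2 fold change was 0.11 (SE 0.24, 95% interval -0.43 to 0.64, edgeR adjusted p = 0.863). It turned to -0.18 without knockout library 1 and to -0.10 with limma-voom and library quality weights, and it was 0.12 by DESeq2.

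Among 16 other genes of thioredoxins, peroxiredoxins, catalase and superoxide dismutases, 0 passed the threshold, 3 had an unadjusted p under 0.05, and the median log2 fold change was 0.03. DESeq2 called 1, Txnrd3, a thioredoxin reductase best known from testis, at 3.66 ± 0.341 and 5.41 ± 0.327 CPM with no overlap between the groups (log2 fold change 0.56, SE 0.14, edgeR adjusted p = 0.0799, or 0.379 with close control pairs counted as 1). Prdx4, the peroxiredoxin of the endoplasmic reticulum, stood at 74.2 ± 13.1 and 101 ± 17.2 CPM (log2 fold change 0.44, edgeR adjusted p = 0.168). Prdx6, which also has phospholipase activity, stood at 101 ± 21.3 and 82.8 ± 6.02 CPM (log2 fold change -0.29, edgeR adjusted p = 0.322). Txnip, the inhibitor of thioredoxin, had a log2 fold change of 0.47, Sod1, cytosolic superoxide dismutase, of -0.25, and Msrb1, a methionine sulfoxide reductase, of -0.21 (edgeR adjusted p = 0.362, 0.363 and 0.504). The fold changes of the peroxiredoxin genes had both signs, positive for Prdx1 and Prdx4 and negative for Prdx6.

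Nqo1 (ENSMUSG00000003849) encodes the quinone reductase most used as a readout of Nrf2 activity. It was near the lower end of detection, at 0.717, 0.692, 0.600, 0.951 and 0.899 CPM in the controls and 0.922, 0.842, 3.24, 0.856 and 0.705 CPM in knockout libraries. Counts ran from 21 to 128, so single libraries carry appreciable counting error. Knockout library 3 alone stood apart, and the other 4 knockout libraries differed little from the controls. The log2 fold change was 0.76 (SE 0.44, 95% interval -0.20 to 1.73, edgeR adjusted p = 0.430), and it was 0.11 without knockout library 3. The same library was highest for the fibroblast genes Col3a1 (2219 CPM, next 1387 CPM) and Pdgfra (76.3 CPM, next 36.97 CPM), and their part in the Nqo1 value was not tested. Of the 8 fibroblast markers 0 passed the threshold between the genotypes, with summed levels from 638 to 2147 CPM in the controls and from 257 to 3396 CPM in knockout libraries.

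Of 22 other genes known as Nrf2 targets, 19 could be tested and 1 passed the threshold, against 1.41% of all genes tested. This was Ephx1, higher in knockout libraries, which encodes microsomal epoxide hydrolase. There were 7 at an unadjusted p under 0.05, against 15.3% of all genes tested, and the median log2 fold change of the 19 was 0.10. Ephx1 stood at 11.7, 12.3, 11.3, 17.6 and 13.02 CPM in the controls and 22.1, 28.2, 38.6, 25.9 and 28.6 CPM in knockout libraries. All knockout libraries lay above all controls, and it rose from a mean of 13.2 ± 2.57 to 28.7 ± 6.14 CPM (log2 fold change 1.12, SE 0.17, 95% interval 0.75 to 1.5, edgeR adjusted p = 0.0126). The call held with any single library left out (adjusted p up to 0.0475). It ended with each close control pair counted as 1 library (0.0786) and without knockout libraries 4 and 5 (0.0732), with log2 fold changes of 1.12 and 1.18.

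DESeq2 called 3 of these target genes, against 4.55% of the genes it tested. It added Abcc1, an exporter of glutathione conjugates, and Blvrb, biliverdin reductase B. Abcc1 stood at 55.6 ± 10.7 and 85.6 ± 18.4 CPM (log2 fold change 0.62, SE 0.17, edgeR adjusted p = 0.106, or 0.462 with close control pairs counted as 1). Blvrb stood at 84.2 ± 7.63 and 114 ± 19.04 CPM with no overlap between the groups (log2 fold change 0.44, SE 0.12, edgeR adjusted p = 0.106, or 0.437 with close control pairs counted as 1). Values in the other direction were those of Gstp1, a glutathione transferase (37.8 ± 11.5 and 20.8 ± 7.07 CPM, log2 fold change -0.86, edgeR adjusted p = 0.163), the malic enzyme gene Me1 (log2 fold change -0.56, edgeR adjusted p = 0.382) and the ferritin heavy chain gene Fth1 (log2 fold change -0.09, edgeR adjusted p = 0.744). The count tables hold no reads that map to several places, which makes the levels of Gstp1 and of ferritin genes uncertain.

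The oxidant source of phagocytes, the NADPH oxidase, gave 0 of 7 genes past the threshold by edgeR and 0 by DESeq2 when taken with Nos2. There was 1 at an unadjusted p under 0.05, against 15.3% of all genes tested. The median log2 fold change was -0.11, and 6 of the 7 were negative, against 50.49% of all genes tested. Ncf4 stood at 218 ± 23.5 and 178 ± 20.1 CPM and the catalytic subunit gene Cybb at 919 ± 139 and 715 ± 173 CPM (log2 fold change -0.30 and -0.36, edgeR adjusted p = 0.211 and 0.352). Ncf1, which encodes an organizer subunit of the oxidase, had a log2 fold change of 0.14 (edgeR adjusted p = 0.620).

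**Figure D4:**
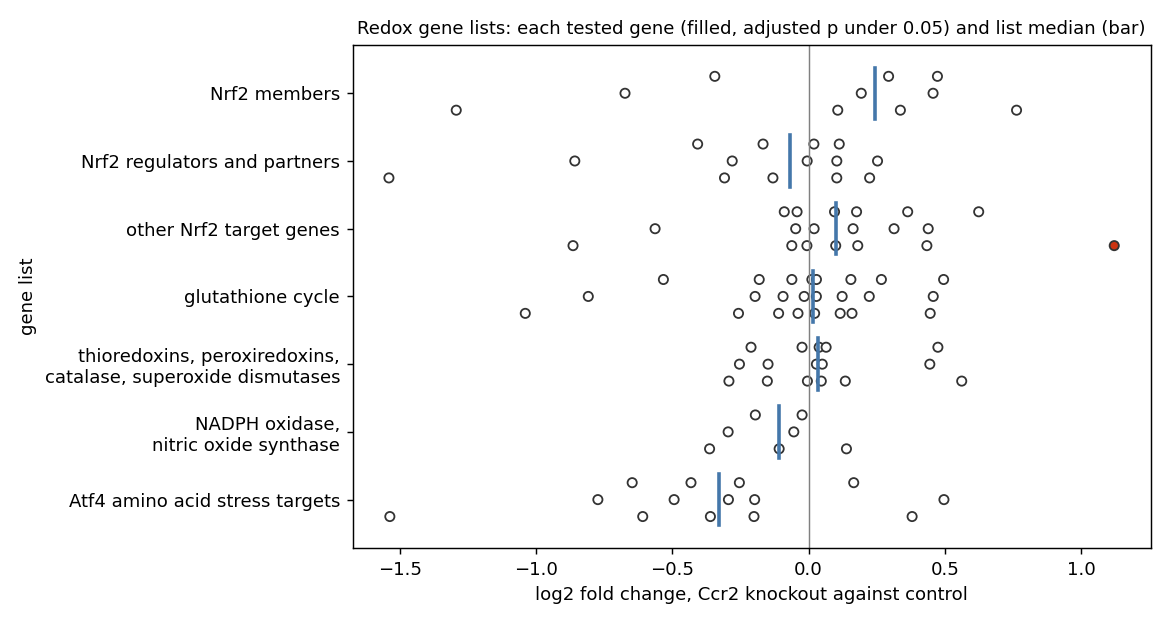
Log2 fold change, Ccr2 knockout against control, of each tested gene in the 10-gene set and 6 further redox lists; filled points passed an adjusted p of 0.05 in edgeR, and the vertical bar is the list's median. Only Ephx1, among the other Nrf2 target genes, is filled, and the medians run from -0.33 for Atf4 targets to 0.24 for the 10 genes.

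Levels of the genes were compared with each other as mean CPM per kilobase of annotated exon over the 10 libraries. Prdx1 was the most abundant at 153, followed by Nfe2l2 at 59.0, and neither's range over the libraries overlapped that of the next gene. Keap1 (17.95), Txnrd1 (14.9), Srxn1 (10.5), Gsr (10.1), Gclc (5.86) and Gclm (3.41) followed, each overlapping its neighbours. Nqo1 (0.671) and Slc7a11 (0.588) were lowest, apart from Gclm and overlapping each other. The exon lengths are unions over all annotated transcripts, so the order between neighbours depends on them.

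The highest and lowest values of the 10 genes fell in 7 of the 10 libraries, all but control libraries 2 and 4 and knockout library 2. Knockout library 1 was the highest of all 10 for 4 genes, Nfe2l2, Gclc, Gclm and Txnrd1, and the lowest for Keap1. Knockout library 3 was the highest for Nqo1, Srxn1 and Prdx1. Control library 3 was the lowest for Nqo1, Gclm and Gsr. Within genes the highest library exceeded the lowest by 1.66-fold for Gclc, 1.69-fold for Prdx1 and 1.72-fold for Srxn1, against 2.91-fold for Gsr, 5.41-fold for Nqo1 and 15.5-fold for Slc7a11.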

How the data were processed

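RNA-seq of 10 libraries was analysed, 5 per genotype. The authors deposited whole-number read counts per gene for each library. Per the submitters' processing notes, STAR was the aligner and GRCm39 the genome build. The reverse-strand count column was used, which held 96.2 to 96.5% of the stranded reads. Rows without a gene symbol (3276 of 55359, 0.145% of counts) kept their identifiers, and summary rows of unassigned reads stayed out of library sizes. A combined table with 10 unnamed columns was not used.

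Genes were filtered with filterByExpr (minimum count 10), scaled by TMM and tested with edgeR's quasi-likelihood test (edgeR 4.0.16, limma 3.58.1, DESeq2 1.42.0, R 4.3.3), with Benjamini-Hochberg adjustment over all 14374 genes tested. The procedure was checked on simulated counts, with each library drawn independently. That check does not cover libraries as alike as the close control pairs. CPM use TMM-scaled library sizes. Exon lengths came from GENCODE M21 on GRCm38, matched by gene identifier, and promoters from RefSeq tables of GRCm38.p6. Ratios within libraries were tested by exact permutation.

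The 10 genes and all lists were chosen with earlier results of these data known. The rule for named genes took all 10, Ccr2, Slc3a2 for its ratio, and from each pathway list every gene past the threshold and the 3 with the smallest p in each direction, except that a gene the rule would name is not reported here. The neutrophil genes S100a8, S100a9, Csf3r, Cxcr2, Ngp, Camp and Ltf were named from the marker lists after their values were seen. So were Col3a1, Pdgfra, Tyr, Mlana, Dct, Tyrp1, Adgre1 and Csf1r. Alternatives were DESeq2, limma-voom with library quality weights, other scaling and filters, the replicate block, summed or omitted close libraries, and leaving out each library.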

Additional observations from a re-analysis of the deposited data

Results flagged for a closer look

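In 12 of 98 groups of 5 libraries, 1 library lay far from the other 4, with a gap to its nearest neighbour above 0.71 of the group's range. Chance gives about 1 such group in 20 where groups are independent and values are normally distributed, which was not checked for CPM. These groups reuse the same 10 libraries over related genes, in part chosen by p, so that rate cannot tell whether 12 is more than chance. Among the 10 Nrf2 genes these were Nqo1 in knockout library 3 (3.24 CPM, next 0.922 CPM) and Txnrd1 in knockout library 1 (189 CPM, next 105 CPM).

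Control library 5 stood apart for 6 genes of the other lists. It was the highest control for Maff (72.2 CPM, next 44.3 CPM), Nfe2 (4.59 CPM, next 2.44 CPM), Abcc1 (74.0 CPM, next 53.9 CPM), Gpx1 (1021 CPM, next 808 CPM) and Gpx3 (69.2 CPM, next 45.4 CPM), and the lowest for Psat1 (30.5 CPM, next 41.1 CPM). Knockout library 3 was the highest of its group for Gpx8 (9.02 CPM, next 3.12 CPM) and Mgst3 (30.2 CPM, next 18.95 CPM). Knockout library 4 was the highest for Pgam5 (35.6 CPM, next 31.7 CPM). Ephx1 in control library 4 (17.6 CPM, next 13.02 CPM) was the highest control and still below every knockout library.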

How the results depend on the processing

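None of the 10 Nrf2 genes passed the threshold under any alternative run except Srxn1 by DESeq2 (1 gene). The number of genes past the threshold over all genes, 203, was 799 by DESeq2, 446 by limma-voom with library quality weights, 29 with close control pairs summed, 8 with knockout libraries 4 and 5 also summed, and 50 without those libraries. Leaving out 1 library gave 62 to 267, with 77, 62, 101 and 77 without control libraries 1 to 4 and 107 and 92 without knockout libraries 4 and 5. The cause of these shifts was not tested. Of the other Nrf2 targets, 3 passed by DESeq2, 2 by limma-voom, 1 with any library left out, and 0 in both summed settings (Ephx1 adjusted p 0.0786 and 0.169) and without knockout libraries 4 and 5. DESeq2 called 1 regulator and 1 gene of the thioredoxin list, limma-voom 1 of the latter. The glutathione list gave 0 to 1 with a library left out. Txnrd1 reversed to -0.18 without knockout library 1 and to -0.10 by limma-voom, and Slc3a2 to 0.0541 without control library 5 and 0.0084 without knockout libraries 4 and 5. Left-out libraries moved the log2 ratio differences over -0.24 to -0.13 (Gclc to Gclm), -0.92 to -0.37 (Nfe2l2 to Keap1) and -2.16 to -1.29 (Slc7a11 to Slc3a2), and the log2 fold changes of Txnrd1 over -0.18 to 0.23 and of Slc3a2 over -0.12 to 0.0541.

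Replicate numbers were shared by title only. Deviations of same-numbered libraries correlated at 0.344, 0.0802, -0.529, 0.18 and -0.224, and 1 number of 5 matched its own best. These values gave no sign of a pairing by number, though they cannot exclude one that the labels do not state. With the number as a block 55 genes passed over all genes, 0 of the 10 Nrf2 genes and 0 other targets. A sign-flip test of the ratios over 5 pairs could not pass the threshold of 0.05 and is not used. Of the marker lists, 6 classical monocyte markers and 0 resident-like, core, dendritic and melanoma markers passed with the block. The counts were 1 and 0 with close control pairs summed and knockout libraries 4 and 5 summed as well. Those 2 knockout libraries were not a close pair (median chi-square per gene 6.64). Among the 10 genes Nqo1 had 21 to 128 counts per library.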
